A study of Mus musculus with 10 samples.

Results

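The Rab genes are the mouse genes whose symbol is Rab followed by a number, with or without a letter, and they encode small GTPases of membrane traffic. The arrays name 59 of them, with 134 probe sets (95 on the 430A chip and 39 on the 430B chip) that name no other gene, out of 45137 probe sets in the series. Of the 59 genes, 54 have at least 1 probe set above a filter on low intensity. The other 5, Rab3b, Rab20, Rab25, Rab26 and Rab40b, were too dim to test. The study set 3 medulloblastomas against 2 samples of adjacent cerebellar tissue, labelled wild type, on each chip. Tumours and cerebellar tissue both came from CAGGS-CreER;R26-SmoM2 mice. Tamoxifen was given at postnatal day 10 at a dose of 1 mg per 40 g of body weight. CreER is a recombinase that tamoxifen activates, here expressed from the broad CAGGS promoter, and SmoM2 is an active form of Smoothened, which switches on Hedgehog signalling. The cerebellar tissue therefore carried the same alleles and had met the same drug, and the labels do not give the age at collection or the share of recombined cells. Samples of a tissue are labelled biological replicates, and the p-values rest on the spread between them. The fit draws the variance of each probe set towards that of probe sets of similar intensity.

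Rab proteins are molecular switches. Bound to GTP they sit on a membrane and recruit tethers, motors and fusion machinery, and bound to GDP they are taken off by a dissociation inhibitor. Each compartment of the secretory and endocytic pathways carries its own Rabs, so the family labels the route a vesicle takes. In neurons, Rab3 proteins act on synaptic vesicles, and Rabs of the Golgi and endosomes supply axons, dendrites and synapses. In the mouse, Rab23 restrains Hedgehog signalling, the pathway that SmoM2 activates.

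The start regions of 4 genes that fell are shown here, Rab3a, Rab15 and Rab6a because they were among the largest falls and Rab5a because its window held the most kinds of the motifs searched. Each window covers 250 bases before to 50 after the gene's start in RefSeq on GRCm38.p6, the first window listed for a gene with several, and is printed 5′ to 3′ on the gene's strand. Capitals mark CACGTG (the E-box of MYC and TFE factors), TGACGTCA (the cAMP response element), GGGCGG (the GC box) or their reverse complements.
Rab3a, chr8:70754453-70754752, plus strand: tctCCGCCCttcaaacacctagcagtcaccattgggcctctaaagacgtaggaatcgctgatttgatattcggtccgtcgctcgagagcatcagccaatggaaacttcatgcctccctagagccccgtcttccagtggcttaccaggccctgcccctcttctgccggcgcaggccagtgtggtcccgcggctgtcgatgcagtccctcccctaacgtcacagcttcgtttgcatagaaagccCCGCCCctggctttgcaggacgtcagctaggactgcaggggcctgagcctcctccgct
Rab15, chr12:76822475-76822774, minus strand: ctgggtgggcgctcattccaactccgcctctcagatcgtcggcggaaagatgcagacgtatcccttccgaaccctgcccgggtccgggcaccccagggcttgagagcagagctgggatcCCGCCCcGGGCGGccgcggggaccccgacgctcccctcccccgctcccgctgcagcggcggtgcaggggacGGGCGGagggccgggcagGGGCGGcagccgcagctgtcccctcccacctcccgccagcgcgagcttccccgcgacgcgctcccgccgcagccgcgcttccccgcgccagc
Rab6a, chr7:100607336-100607635, plus strand: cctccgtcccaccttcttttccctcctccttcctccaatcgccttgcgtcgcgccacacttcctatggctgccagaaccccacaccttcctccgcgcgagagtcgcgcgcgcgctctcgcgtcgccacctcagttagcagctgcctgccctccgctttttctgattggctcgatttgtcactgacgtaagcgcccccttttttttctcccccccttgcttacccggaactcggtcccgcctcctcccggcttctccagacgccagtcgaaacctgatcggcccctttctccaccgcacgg
Rab5a, chr17:53478984-53479283, plus strand: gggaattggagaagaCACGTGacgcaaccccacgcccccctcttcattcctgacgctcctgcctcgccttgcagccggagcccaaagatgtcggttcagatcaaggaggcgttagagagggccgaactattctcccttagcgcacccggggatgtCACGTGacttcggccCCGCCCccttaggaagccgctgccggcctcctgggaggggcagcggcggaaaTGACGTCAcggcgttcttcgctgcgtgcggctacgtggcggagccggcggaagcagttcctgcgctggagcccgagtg
GACCACCCA (the GLI site) and TTCAGCACC (part of the REST site) were searched as well, on both strands, and no motif holds another. A window was given for 44 of the 54 tested genes and for 14 of the 18 that fell. The GC box was in 12 of those 14 and in 31 of the 44, against 35.9% of all 27025 genes with a window. The 27025 genes were not limited to those tested on the arrays, as the 44 were. CACGTG was in 4 of the 44 (Rab5a, Rab21, Rab23 and Rab24), against 7.24% of all genes. TGACGTCA was found in Rab5a, against 1.88%, GACCACCCA in Rab31, against 0.244%, and TTCAGCACC in none, against 0.359%. A match is a description of letters and not a bound site.

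The deposited intensity had a median of 33.3 to 35.9 on the 430A arrays and 22.5 to 24.0 on the 430B arrays. The 430B arrays of tumours 1 and 2 stood apart. Over the 100 probe sets that both chips hold, their mean log2 intensity was 8.06 and 8.01, against 7.47 for tumour 3 and 7.58 and 7.69 for the cerebellum arrays of that chip. On 430A the same probe sets had means of 7.32 to 7.42 in tumours and 7.50 to 7.58 in cerebellum. Each chip was deposited as its own table and was tested on its own. That did not remove the difference among the 430B arrays, which stayed in the fold changes of that chip. The values of Rab9b, Rab19, Rab27b, Rab35, Rab36, Rab38, Rab39, Rab39b, Rab42 and Rab44 come from 430B, as do those of other genes where stated, and the remaining values come from 430A. Marker genes of the cells moved with the tissue. All 8 markers of granule neuron precursors rose (summed 430A intensity 3252 to 3801 in tumours and 227 to 382 in cerebellum), and 5 of 7 microglial markers rose (905 to 1132 and 327 to 394). Markers fell in 7 of 8 cases for mature granule neurons (494 to 550.2 in tumours and 9372 to 10301 in cerebellum). For Purkinje cells 6 of 6 fell (184 to 368 and 11631 to 14382). For GABAergic interneurons 5 of 6 fell (109.7 to 145 and 1128 to 1576 over the 3 on 430A). For oligodendrocytes 6 of 6 fell (135 to 291 and 3809 to 4728 over the 5 on 430A). For astrocytes and Bergmann glia 5 of 8 fell (885 to 1842 and 6324 to 7615 over the 7 on 430A). Of 6 endothelial and pericyte markers, 1 fell (341 to 402 and 366 to 439.7). None of the tested markers was at the floor of 1 on all arrays. The tissue was measured in bulk, so fewer cells of a type and less RNA per cell cannot be told apart, and the part of the cell mix in the Rab values was not tested.

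Every Rab gene that passed the test was lower in the tumours. With 1 probe set per gene, 18 of 54 tested Rab genes fell in medulloblastoma at a limma adjusted p below 0.05, which is 33.3% of those tested, against 16% of 14702 genes. None rose, against 10.7% of all genes. At an unadjusted p below 0.05, 4 were higher and 22 lower, against 2228 and 3095 of the 14702 genes. In 26 of the 54 genes all 3 tumours lay below both cerebellum arrays, against 30.1% of all genes, and in 7 all lay above, against 22.2%. The median log2 fold change of tumour over cerebellum was -0.23 over the Rab genes and -0.05 over all genes. The falls reached at least 1 log2 unit in 7 genes, Rab3a, Rab15, Rab4a, Rab6a, Rab6b, Rab33b and Rab2a, while 8.41% of all genes fell that far. By compartment, the median log2 fold change was -0.73 for recycling endosomes, -0.55 for the endoplasmic reticulum and Golgi, -0.33 for early endosomes, -0.28 for regulated secretion, -0.18 for late endosomes and lysosomes and 0.03 for exocytic carriers, cilia and other routes. The count moved with either cerebellum array. Without cerebellum 1 the count of Rab genes that fell was 10, and without cerebellum 2 it was 8, while all genes that fell numbered 1686 and 1433. Rab1a, Rab5a, Rab14, Rab18, Rab21 and Rab30 lost their calls without either one, Rab33a and Rab33b without cerebellum 1, and Rab4b, Rab5b, Rab6b and Rab7 without cerebellum 2. All 18 fold changes kept their sign in both fits, and Rab3a, Rab15, Rab4a, Rab6a and Rab9b passed the test under every alternative that measured them.

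**Figure D1:**
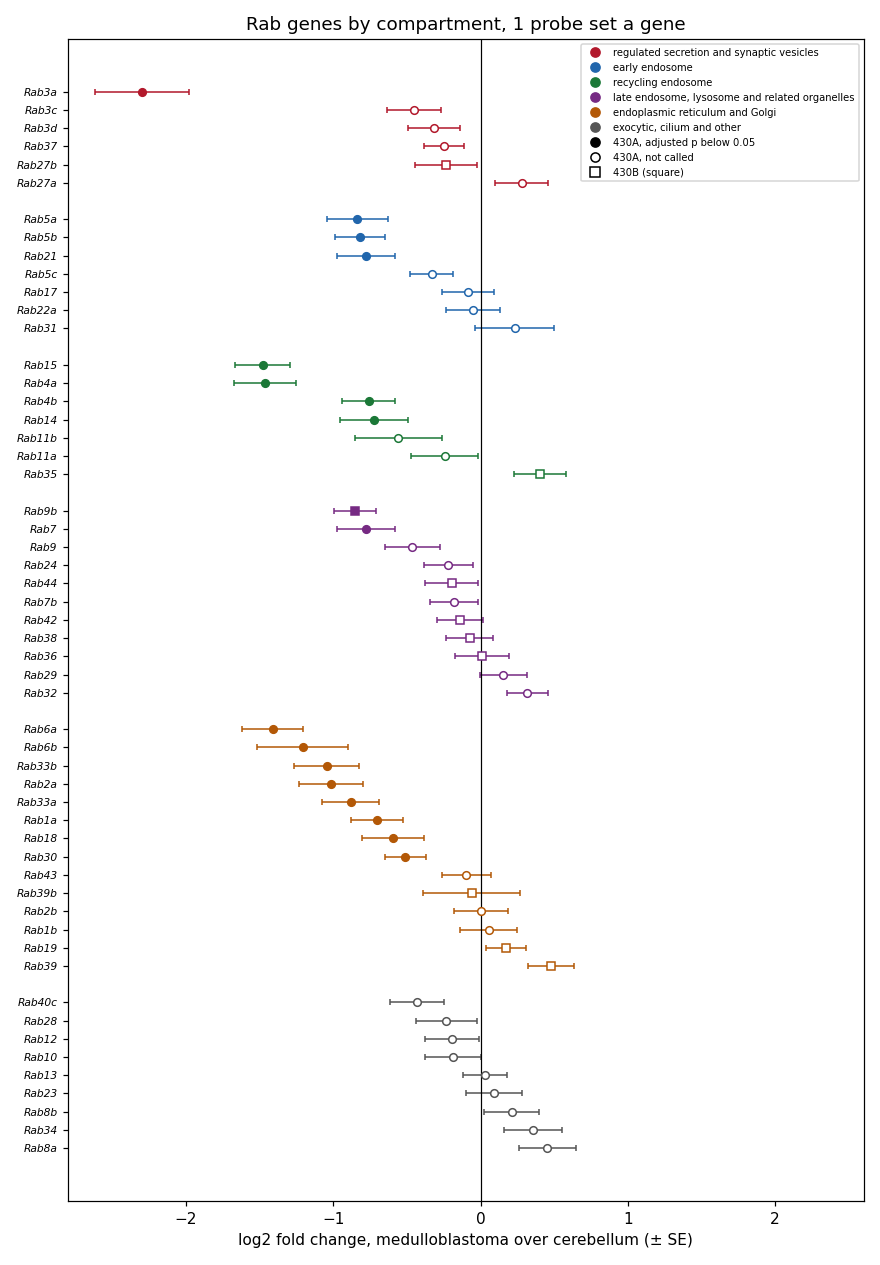
Log2 fold change of medulloblastoma over cerebellum, with its standard error, for the 54 tested Rab genes, grouped by compartment and with 1 probe set per gene. Filled symbols passed an adjusted p of 0.05, circles are 430A and squares 430B, and the points run from -2.30 for Rab3a to 0.48 for Rab39, with all 18 filled symbols below 0.

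Among the Rabs of regulated secretion, 1 of 6 tested fell (16.7%), close to the 16% of all genes. That gene, Rab3a, had the largest fall of the family on the chosen probe sets. Rab3a is the main Rab of synaptic vesicles and acts in their docking and priming for release. Its intensity was 69.1, 129.8 and 63.5 in the tumours, against 341 and 654 in the cerebellum samples. The groups lay far apart, and within them tumour 2 and cerebellum 2 were the highest. The log2 fold change was -2.30 ± 0.32 (adjusted p = 2.2e-04), and the 430B probe set gave -1.72 ± 0.26 (adjusted p = 0.0011). On 430B Rab3a read 242, 211 and 238 in tumours and 716 and 884 in cerebellum, so both chips separated the tissues.

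Among the other Rabs of regulated secretion, the calls of Rab3c, Rab27a and Rab37 depended on the probe set. Rab3c, a close relative of Rab3a on synaptic vesicles, had 58.7, 52.7 and 71.9 in tumours and 97.1 and 81.1 in cerebellum on 430A, with a log2 fold change of -0.45 ± 0.18 (adjusted p = 0.0869). Its 430B probe set read 179, 125 and 144.5 in tumours, against 375 and 349 in cerebellum, and fell (-1.20 ± 0.24, adjusted p = 0.00556). Rab27a, which drives secretion of lysosome-related granules and melanosome transport, gave opposite signs on its tested probe sets. The tested 430A probe set read 30.9, 36.3 and 52.0 in tumours and 27.9 and 30.9 in cerebellum (0.28 ± 0.18, adjusted p = 0.278). The 430B probe set read 14.1, 16.7 and 22.2 against 51.9 and 55.2 (-1.05 ± 0.15, adjusted p = 7.54e-04). Its other 430A probe sets were too dim to test. Their means were 4.5 and 5.9 in tumours and 9.7 and 9.6 in cerebellum, with all tumours lower. Rab37, a Rab of secretory granules, had -0.25 on 430A (adjusted p = 0.200) and fell on 430B (-0.56 ± 0.15, adjusted p = 0.0248). Rab3d and Rab27b had -0.32 and -0.23 and did not pass the test, and another probe set of each was above 0 (0.39 and 0.22), also without passing it. The probe sets that fell for Rab3c, Rab27a and Rab37 were noted after their values were seen.

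Of the 7 tested early endosome Rabs, 3 fell (42.9%, against 16% of all genes). Each of the 3 fell by less than 1 log2 unit on the chosen probe set. Rab5a and Rab5b, which direct fusion of early endosomes and the uptake of receptors, had log2 fold changes of -0.84 ± 0.20 and -0.82 ± 0.17. Rab5a read 182, 187 and 241 in the tumours and 373 in both cerebellum samples. Rab5b read 50.9, 42.7 and 46.7 in the tumours, against 85.6 and 104 in cerebellum, with no overlap. The 430B probe set of Rab5b did not show this, with 86.5, 74.6 and 60.1 in tumours and 60.6 and 39.9 in cerebellum (0.44 ± 0.20, adjusted p = 0.176). Rab5c, the third isoform, had -0.33 ± 0.15 and missed the threshold (adjusted p = 0.115), although all tumours lay below both cerebellum samples.

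Rab21, an early endosome Rab known for the traffic of integrins, fell on both of its probe sets. They gave -0.78 ± 0.20 (adjusted p = 0.0107) and -1.56 ± 0.19 (adjusted p = 9.29e-05). The second read 18.2, 35.0 and 29.9 in tumours, against 117 and 107 in cerebellum. Rab17, Rab22a and Rab31 had log2 fold changes of -0.09, -0.05 and 0.23, none past the test, and in Rab31 tumour 2 (117) lay apart from tumours 1 and 3 (217 and 230.1).

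Of the 7 tested recycling endosome Rabs, 4 fell (57.1%, against 16% of all genes), among them Rab15 and Rab4a by more than 1 log2 unit. Rab15, a Rab of neuronal recycling endosomes, had 46.7, 63.4 and 51.6 in tumours, against 172 and 184 in cerebellum. The samples of each tissue were close together, and the log2 fold change was -1.48 ± 0.19 (adjusted p = 1.05e-04). Rab4a, which returns receptors quickly from early endosomes to the surface, read 10.9, 16.6 and 7.77 in tumours and 43.8 and 79.9 in cerebellum. The tissues did not overlap, and tumour 2 and cerebellum 2 were the higher samples of their groups. Rab4a fell by 1.46 on the log2 scale (SE 0.21, adjusted p = 2.85e-04), and the second probe set gave -1.59 ± 0.23 (adjusted p = 3.23e-04). Rab4a was dim in tumours, so its fold change rested on the pseudocount of 16 added before the log, with -2.30 at a pseudocount of 1 and -0.72 at 64. Its relative Rab4b fell by 0.76 on the log2 scale (SE 0.18, adjusted p = 0.00769).

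Rab11a and Rab11b, the Rabs of slow recycling, did not pass the test, with -0.24 ± 0.23 and -0.56 ± 0.30 (adjusted p = 0.473 and 0.185). Rab11b had 140.4, 188 and 104 in tumours and 154 and 297 in cerebellum, and the groups overlapped through tumour 2. It fell when tumour 2 was left out (-0.75, adjusted p = 0.0425). Without tumour 2 all genes that fell numbered 2507, against 2358 with every array. Rab35, which acts in fast recycling, read 84.9, 88.7 and 84.8 in the tumours on 430B, against 52.8 and 70.7 in cerebellum. All tumours were above both cerebellum samples, but the test did not call it (0.40 ± 0.18, adjusted p = 0.162). Rab14, described with Rab7, was the other recycling Rab that fell.

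**Figure D2:**
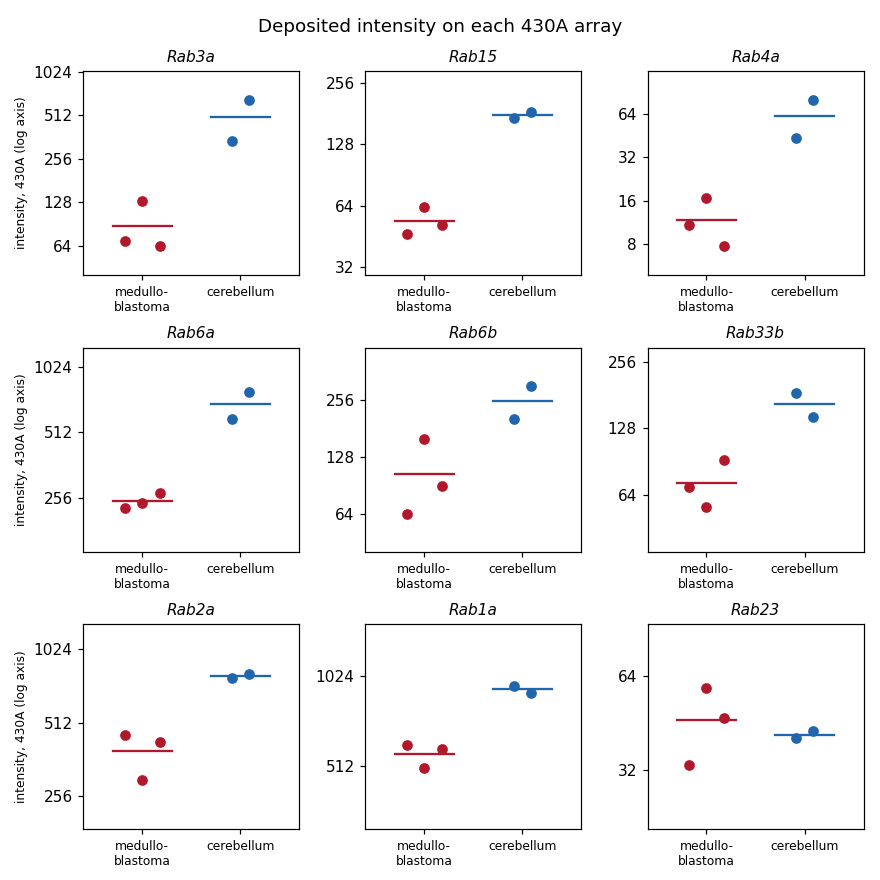
Deposited intensity on a log axis for 9 Rab genes on each 430A array, with 3 medulloblastomas on the left, 2 cerebellum samples on the right and the mean of each group as a line. The tumours lie below both cerebellum samples in 8 genes, and in Rab23 the tumours (33.1 to 58.2) enclose the cerebellum values (40.4 and 42.6).

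Rabs of the endoplasmic reticulum and Golgi made up 8 of the 18 genes that fell, out of 14 tested. The 8 are 57.1% of those tested, against 16% of all genes. Rab6a and Rab6b drive retrograde and exocytic traffic from the Golgi, and Rab6b is the form enriched in brain. Rab6a had 229, 243 and 269.6 in tumours, against 591 and 789 in cerebellum. The tumours were within a narrow range and far below both cerebellum samples. Rab6a fell by 1.41 on the log2 scale (SE 0.20, adjusted p = 2.96e-04), and the other 430A probe set gave -1.50 ± 0.20 and the 430B one -0.88 ± 0.27 (adjusted p = 0.0465). Rab6b read 64.7, 160.4 and 90.1 in tumours and 203 and 304 in cerebellum, with tumour 2 high among the tumours. It fell on 430A (-1.21 ± 0.31, adjusted p = 0.0114), while its 3 probe sets on 430B gave -0.19 to -0.47 and did not pass the test.

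Rab33a and Rab33b both fell. Rab33b, a Golgi Rab that also binds an autophagy factor, had 69.0, 56.1 and 92.0 in tumours, against 186 and 144 in cerebellum (-1.04 ± 0.22, adjusted p = 0.00357). Rab33a, its neuronal relative, had 56.8, 47.6 and 72.1 against 127 and 114 (-0.88 ± 0.19, adjusted p = 0.0045). In both genes every tumour was below every cerebellum sample, and tumour 3 was the highest tumour. Rab30, another Golgi Rab, fell on its 430A probe set (-0.51 ± 0.14) and on its brighter 430B probe set (-1.26 ± 0.20, adjusted p = 0.00154), where tumours read 46.0, 39.1 and 26.1 and cerebellum 122 and 98.3.

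Rab1 and Rab2 control traffic between the endoplasmic reticulum and the Golgi, and within each pair the 2 genes gave different calls. Rab2a had 455, 298 and 425 in tumours, against 785 and 812 in cerebellum, with tumour 2 the lowest sample (-1.02 ± 0.21, adjusted p = 0.00368). Of its 6 tested probe sets 4 fell, and the range over all 6 was -1.30 to 0.03. Rab2b had 122, 103 and 118 in tumours and 115 and 113 in cerebellum, a log2 fold change of 0.001 ± 0.18, and its 5 probe sets ranged from -0.04 to 0.28 with none called. The difference between the 2 genes was not tested.

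Rab1a was the member whose probe sets passed the test in opposite directions. The brightest one read 601, 504 and 581 in tumours, against 949 and 898 in cerebellum, and fell (-0.70 ± 0.18, adjusted p = 0.00967). A dim 430B probe set read 25.8, 29.4 and 29.8 in tumours, against 17.6 and 14.4 in cerebellum, and rose (0.47 ± 0.13, adjusted p = 0.037), and the remaining probe set gave -0.20 ± 0.20. The groups were separate on both probe sets that passed and overlapped on the remaining one. The dim 430B probe set was the 1 of 115 tested across the family that rose, while 31 fell. Rab1b had 0.05 ± 0.20. Rab18, a Rab of the endoplasmic reticulum and lipid droplets, fell (-0.60 ± 0.21, adjusted p = 0.0493), but its call ended when any of the 5 samples was left out (adjusted p between 0.0502 and 0.275). The other tested probe set of Rab18 gave -0.42 ± 0.26 and was not called (adjusted p = 0.267). Rab39, a dim 430B gene, had 0.48 ± 0.16 (adjusted p = 0.062) and rose without tumour 3 (0.52, adjusted p = 0.0289). That fit kept only the tumour arrays of 430B that stood apart. In it the 430B probe sets that rose numbered 2603, against 1326 with every array. On its first probe set Rab39b, in which tumours ranged from 66.5 to 184 and enclosed both cerebellum values, had -0.06 ± 0.33, and on its second -0.72 ± 0.23 (adjusted p = 0.0602). Rab19 and Rab43 had 0.17 and -0.10 and did not pass the test.

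Among late endosome and lysosome Rabs, 2 of 11 fell (18.2%), close to the 16% of all genes. Rab7, which brings late endosomes to lysosomes, had 322, 291 and 314 in tumours, against 480 and 611 in cerebellum (-0.78 ± 0.20, adjusted p = 0.0103). Its other 430A probe set gave -0.46 ± 0.24 and was not called (adjusted p = 0.174). Rab9b, a relative of the Rab that carries cargo from late endosomes to the Golgi, read 37.0, 33.6 and 34.3 in tumours, against 76.3 and 75.6 in cerebellum on 430B. The samples of each tissue almost coincided, and the log2 fold change was -0.85 ± 0.14 (adjusted p = 0.00238). Rab9 itself had -0.46 ± 0.19 and missed the threshold (adjusted p = 0.0857), with all tumours below both cerebellum samples. Rab32, which acts on lysosome-related organelles, had 34.2, 32.3 and 31.0 in tumours and 24.3 and 21.6 in cerebellum, a higher value that was not called (0.32 ± 0.14, adjusted p = 0.113). The values of Rab7b, Rab24, Rab29, Rab36, Rab38, Rab42 and Rab44 lay between -0.22 and 0.15, with overlapping groups.

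The same probe sets for Rab7 and Rab14 were on both chips and read differently there. Rab14, a Rab between Golgi and endosomes, had 92.4, 116 and 159 in tumours, against 219.97 and 198 in cerebellum on 430A, and fell (-0.73 ± 0.23, adjusted p = 0.0333), and of its other tested 430A probe sets 1 fell (-0.71 ± 0.19, adjusted p = 0.0138). On 430B the same probe set read 341, 243 and 174 in tumours, against 294 and 287 in cerebellum, and the groups overlapped (-0.24 ± 0.29, adjusted p = 0.662). Rab7 on 430B read 557, 597 and 375 in tumours and 555 and 693 in cerebellum (-0.30 ± 0.31, adjusted p = 0.589). On 430B tumour 3 lay below both cerebellum arrays for Rab7, and tumours 2 and 3 did for Rab14. Over those 100 probe sets the median log2 fold change was -0.14 on 430A and 0.21 on 430B. Of the 36 tested Rab probe sets on 430B, 7 fell, against 9.77% of all on that chip, and 1 rose, against 7.85%. On 430A 24 of 79 fell, against 19.0%, and none rose, against 13.1%.

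**Figure D3:**
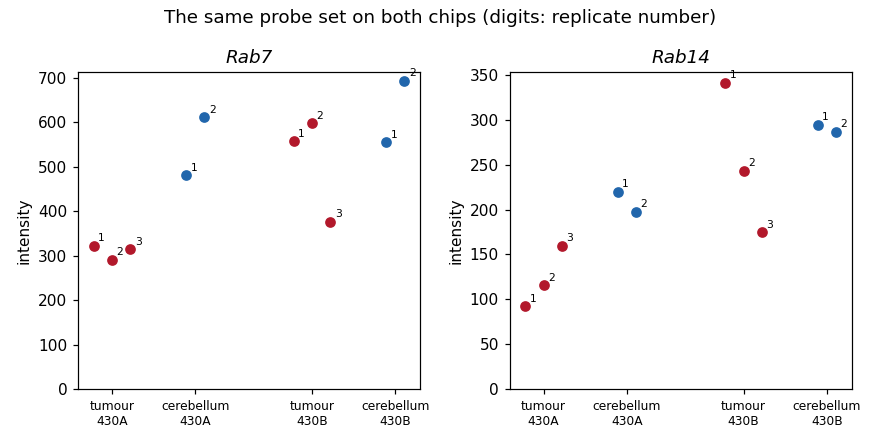
Intensity of the same Rab7 and Rab14 probe sets on the 430A and 430B chips, with 3 tumours left of 2 cerebellum samples for each chip and replicate numbers beside the points. On 430A all tumours lie below the cerebellum samples, while on 430B the groups overlap through tumours 1 and 2 for Rab7 (557 and 597) and through tumour 1 for Rab14 (341).

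None of the 9 tested Rabs of exocytic carriers, cilia and other routes passed the limma test. Over all genes 16% fell and 10.7% rose. At an unadjusted p below 0.05 in that test, 1 was higher and 1 lower, against 2228 and 3095 of 14702 genes. Rab23, the Hedgehog regulator, had 33.1, 58.2 and 47.0 in tumours and 40.4 and 42.6 in cerebellum. The tumours enclosed the cerebellum values, and the log2 fold change was 0.09 ± 0.19 (adjusted p = 0.766). The other 2 probe sets of Rab23 gave -0.01 ± 0.15 on 430A and -0.20 ± 0.17 on 430B, so its call did not turn on the probe set. Without tumour 2 the first probe set gave -0.05.

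Rab8a, which directs exocytic carriers and the building of the primary cilium, read 159, 121 and 130.4 in tumours, against 88.7 and 102 in cerebellum. Every tumour was above every cerebellum sample, and the log2 fold change of 0.45 ± 0.20 was not called (adjusted p = 0.106). It was called under quantile normalization (0.57, adjusted p = 0.0423), after scaling on the shared probe sets (0.63, adjusted p = 0.0265) and without tumour 2 (0.53, adjusted p = 0.0338), and its 430B probe sets gave -0.03 and 0.10. Rab34, also needed for cilia, had 84.5, 49.9 and 73.6 in tumours and 49.8 and 49.5 in cerebellum, with tumour 2 level with the cerebellum (0.36 ± 0.20, adjusted p = 0.212, and 0.53 with adjusted p = 0.018 without tumour 2). Rab31 also rose without tumour 2 (0.51, adjusted p = 0.0345). Rab40c, which joins a ubiquitin ligase, had -0.43 ± 0.18 and fell without tumour 2 (-0.53, adjusted p = 0.0215). Calls grew over all genes in that fit, from 1575 to 1799 higher and from 2358 to 2507 lower. Rab8b, Rab10, Rab12, Rab13 and Rab28 had values from -0.23 to 0.21.

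**Figure D4:**
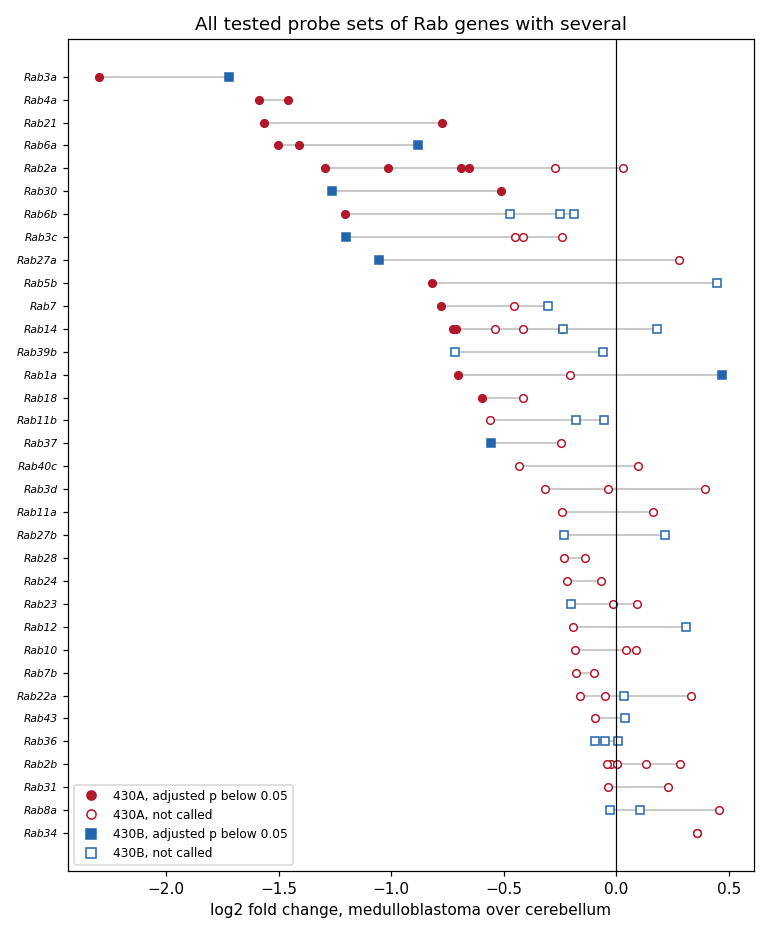
Log2 fold change of medulloblastoma over cerebellum for every tested probe set of the 34 Rab genes with more than 1, with circles for 430A, squares for 430B and filled symbols for an adjusted p below 0.05. Rab3a, Rab4a, Rab21, Rab6a and Rab30 are filled throughout, while Rab1a has filled symbols on both sides of 0 and Rab27a and Rab5b span 0 with 1 filled symbol each.

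Of the 18 genes that fell, 12 had more than 1 tested probe set. In 5 of these, Rab3a, Rab4a, Rab6a, Rab21 and Rab30, all tested probe sets fell. The dim genes left untested read low in both tissues. Rab25, an epithelial Rab, was at 1.00, 1.45 and 1.00 in tumours and 1.00 in both cerebellum samples. Rab3b was at 1.00 to 1.01 in tumours and 5.26 and 1.00 in cerebellum. Rab20 read 4.99, 7.3 and 8.35 in tumours and 4.8 and 2.2 in cerebellum, with all tumours higher. The brighter Rab40b probe set read 11.67, 23.97 and 11.47 in tumours and 12.64 and 6.99 in cerebellum. Rab26 read 7.0, 1.0 and 1.0 in tumours and 9.42 and 3.14 in cerebellum on 430B. The groups overlapped in Rab40b and Rab26.

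Scaling moved some calls. Under quantile normalization 13 Rab genes fell and 2 rose (Rab8a and Rab39), and Rab1a, Rab2a, Rab7, Rab14 and Rab18 lost their calls, Rab1a at -0.15, Rab2a at -0.55, Rab7 at -0.47 and Rab18 at -0.37. With each array scaled on the shared probe sets 15 fell and 2 rose (Rab8a and Rab32), and Rab14, Rab18 and Rab30 lost theirs. That scaling moved the median over genes to 0.12 on 430A and -0.24 on 430B, against -0.06 and -0.03 as deposited. As deposited, the higher genes made up 40.0% of calls on both chips together, 49.3% after quantile normalization and 52.2% after that scaling. On 430A the probe sets that rose were 40.9% of calls as deposited, 50.7% after quantile normalization and 57.5% after that scaling. On 430B they were 44.6% as deposited, 50.03% after quantile normalization and 29.3% after that scaling.

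The proteins that load, unload and read Rabs were described with lists of 4 kinds. Over all genes 16% fell and 10.7% rose, with a median log2 fold change of -0.05, and the counts of each list stand beside these. Of 31 tested effectors, 9 fell and 1 rose, with a median of -0.24. Exph5 (-3.19 ± 0.37 on 430B), a partner of Rab27, and Rims1 (-2.61 ± 0.19 on 430B), a partner of Rab3 at the release site, had the largest falls. Rims1 read 49.4, 41.5 and 53 in tumours, against 381 and 367 in cerebellum. Mical1, an effector that oxidises actin, rose by 2.17 ± 0.17 on the log2 scale. Of 29 GTPase-activating proteins, which switch Rabs off, 7 fell and 1 rose (median -0.19), with Rabgap1l at -2.01 ± 0.19 and Rab3gap2, which acts on Rab3 and Rab18, at -1.30 ± 0.15, and Tbc1d16 at 1.82 ± 0.23 on 430B.

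Of 30 exchange factors, which switch Rabs on, 3 fell and 1 rose, shares below the 16% and 10.7% of all genes, with a median of -0.12. Dennd5a, which acts on Rab6 and Rab39 routes, fell by 1.63 on the log2 scale (SE 0.20), Trappc10, a subunit of a TRAPP complex, had -0.87 ± 0.21, and Dennd2a rose by 2.58 ± 0.19 on 430B. Of 7 genes for dissociation inhibitors, escort proteins and prenylation, 2 fell and none rose, namely Rabac1 (-1.70 ± 0.28), which binds prenylated Rabs, and Chm (-0.85 ± 0.23), the escort protein that presents Rabs for prenylation. All adjusted p-values of these named genes lay between 4.55e-06 (Mical1) and 0.0142 (Chm).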

How the data were processed

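Each array has 1 value per probe set, a linear intensity taken as the authors deposited it. Per the labels' protocols, Trizol RNA was made into biotinylated cRNA for Affymetrix arrays. The software, scaling, background treatment and genome build were not stated in the sources at hand. From 299 to 480 values an array lie at or below 1, so low values may be floored. Groups came from the sample titles. Probe sets were named from GEO's platform table, updated by Entrez number. On 430A 20380 of 22626 name 1 gene and on 430B 14661 of 22511, and 20351 and 14486 of those are in the GRCm38.p6 table.

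Intensities became log2(value + 16), so fold changes understate those of dim probe sets. On each chip the dimmest 25% of probe sets by mean were not tested. Array medians spanned 0.0729 log2 units (430A) and 0.0544 (430B), and nothing was renormalized. Each chip was fitted with limma 3.58.1 in R 4.3.3 (lmFit, eBayes with trend, two-sided), with Benjamini-Hochberg adjustment over its 16969 or 16883 tested probe sets, and errors are standard errors of that fit. A gene took 1 probe set. Chip 430A had priority, next any suffix but _s_at or _x_at, next the highest mean. The number of arrays limits the precision. Genes given in full were those past the test by at least 1 log2 unit, Rab23 and those with opposite calls, and for lists up to 2 rises and 2 falls each; others given in full were chosen after their values were seen. The Rab genes, the lists and the compartments, from textbook knowledge, were chosen with earlier results of these data known. Simulated data with known changes were used to test the fit. Alternatives covered pseudocount, filter, scaling, probe set choice, trend, block and each array left out. Figures used matplotlib 3.10.9.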

Additional observations from a re-analysis of the deposited data

How the results depend on the processing

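Over 54 Rab genes, 674 of 755 values under the alternatives kept their direction and their side of the threshold. With 1 array left out in turn, Rab genes that fell ranged from 8 to 19 and those that rose from 0 to 3 (3 without tumour 2). Where 1 cerebellum array was left, it was assumed to vary like the tumours. Over the same fits, genes of all kinds rose in 875 to 1799 cases and fell in 1433 to 2507, 430A probe sets rose in 1275 to 2806 and fell in 2057 to 3710, and 430B probe sets rose in 531 to 2603 and fell in 954 to 2242. Rab genes that rose numbered 2 under quantile normalization, under scaling on the shared probe sets and with the replicate block, and 1 when any probe set counted. Scaling on the shared probe sets gave 3360 higher on 430A and 672 on 430B. The replicate number as a block gave 2822 higher on 430B and 19 Rab genes that fell. With the block, fold changes came from tumours 1 and 2 alone, whose 430B arrays stood apart. They were the same fold changes as without tumour 3, with a median of -0.038 over all genes in both fits. The labels do not say what the numbers share, same-numbered deviations correlated at -0.03 and 0.17 on 430A and 0.11 and 0.02 on 430B, and tumour 3 has no partner, so the samples were not taken as paired. With tumour 3 as the lone tumour on 430B, an alternative chosen after seeing the data, only the 10 Rab genes read from that chip were refitted, and 2 of them fell (Rab9b and Rab39b). The lone tumour was assumed to vary like the cerebellum arrays.

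Signs turned in these cases, none past the test. Quantile normalization gave 0.0083 for Rab17 and 0.031 for Rab22a. Scaling on the shared probe sets gave 0.088 for Rab17, 0.12 for Rab22a, 0.078 for Rab43, -0.20 for Rab36 and -0.040 for Rab19. The replicate block gave -0.019 for Rab2b, 0.0087 for Rab22a, 0.28 for Rab39b and -0.036 for Rab36. Dropping tumours 1 and 2 from 430B gave 0.12 for Rab38. The brightest probe set gave 0.44 for Rab5b, 0.033 for Rab22a, -0.20 for Rab23 and 0.22 for Rab27b. With 1 array left out the range was -0.041 to 0.064 for Rab2b, -0.063 to 0.15 for Rab1b, -0.23 to 0.12 for Rab22a, -0.17 to 0.00011 for Rab43, -0.047 to 0.25 for Rab23, -0.0069 to 0.073 for Rab13, -0.36 to 0.28 for Rab39b, -0.15 to 0.17 for Rab36 and -0.17 to 0.031 for Rab38. Rab30 (-0.51) gave -0.83 and -0.23 at pseudocounts of 1 and 64. The causes were not tested.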
